A study of Homo sapiens with 2 samples.

Results

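The DNA replication genes are 44 protein-coding genes whose products license, start and carry out the copying of chromosomal DNA, among them the MCM helicase, the origin recognition complex, the replicative polymerases and the enzymes that supply nucleotides. They were examined in a map of accessible chromatin from H1, an established line of human embryonic stem cells, made by ATAC-seq, in which the Tn5 transposase cuts open chromatin and tags it for sequencing. The cells had been cryopreserved and were thawed, treated with DNase I and cleared of debris on Ficoll before tagmentation. Both samples, numbered 1 and 2, belong to 1 untreated group and share 1 deposited list of peaks, so no value has a spread between samples and no test over samples was possible. A region of that list belonged to a replication gene when a summit in it lay within 1000 bp of any annotated transcript start of the gene. This rule gave 55 of the 160327 regions in the list. Every one of the 44 genes had such a region (exact binomial 95% interval 92.0% to 100%, counting error only), against 81.2% of 20007 protein-coding genes (16250). Among the CpG-richer protein-coding genes, meaning a ratio of observed to expected CpG of at least the median of 0.725 around the canonical start, the share was 98.5%, and the 44 genes had a median ratio of 0.826. A single region was found at 35 of the 44 genes, 2 regions at 7 and 3 regions at 2.

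The label of the cells was checked on 10 genes of pluripotent cells and on markers of other cell types. POU5F1, SOX2, NANOG, LIN28A, DNMT3B, ZFP42, PRDM14, SALL4, DPPA4 and L1TD1 all had a region at a start, with a median fold over background of 7.35. Among the markers of other cell types, COL1A1 (7.70), GFAP (6.26), THY1 (5.95), ALB (5.11) and CDH5 (3.39) had one. Apart from CDH5, these folds lay within the range of the pluripotency genes, 4.69 (SOX2) to 11.2 (ZFP42), so fold did not separate them. PTPRC, CD3E, CD14, COL3A1, PECAM1, INS, MYH6 and KRT14 had no region at a start.

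Replication is licensed in G1 phase, when the origin recognition complex, CDC6 and CDT1 load the MCM ring onto DNA. In S phase the kinase CDC7, MCM10, CDC45 and the GINS complex turn the ring into an active helicase, and primase, the polymerases, the PCNA clamp and its loader RFC follow it. Many of these genes are textbook targets of the E2F transcription factors, which drive genes needed for S phase, and embryonic stem cells are known for a short G1 phase and a large share of cells in S phase.

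E2F-type sequences were more frequent around the strongest summit of the replication promoters than around that of all protein-coding promoters. The motif was searched as TTTGGCGC, TTTGCCGC, TTTCGCGC or TTTCCCGC in both orientations, in the 100 bp before and after the highest summit of each promoter. Such a match was present at 14 of the 44 genes (31.8%), against 3.33% of the 16250 protein-coding promoters with a region and 3.70% of those of the CpG-richer genes. The same strings written backwards keep the base composition, but not in every string the number of CpG. They were present at 2.27% of the replication promoters and 2.82% of all promoters. The median G+C content of the window searched was 67.7% for the replication genes and 67.2% for all promoters. In the 14 genes the match nearest to the summit lay a median of 50.0 bp from it. As the search reached 100 bp, no gathering at the summit is shown. The count of genes depended on the window. It was 7 within 50 bp of the summit (1.58% of all promoters), 18 within 200 bp (6.16%), and 20 in the stretch from 250 bp before to 50 bp after the canonical start (4.36%).

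The following stretches, read 5′ to 3′ on the gene's strand of GRCh38, show the E2F match nearest to the summit in each of the 6 functional groups where it came closest, so that the motif can be seen in its setting. Capitals mark E2F matches and the 5-letter CCAAT box, which reads ATTGG on the other strand and is bound by the factor NF-Y. Where the match lies in or beside an annotated exon or untranslated region, only 30 bases are given.
GMNN, chr6:24775293-24775380, plus strand: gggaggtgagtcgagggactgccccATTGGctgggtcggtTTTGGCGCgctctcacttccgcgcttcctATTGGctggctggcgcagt
MCM6, chr2:135876482-135876569, minus strand: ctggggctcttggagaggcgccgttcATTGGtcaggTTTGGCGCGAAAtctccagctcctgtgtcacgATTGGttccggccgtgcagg
RFC3, chr13:33818083-33818112, plus strand: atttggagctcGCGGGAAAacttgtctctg
POLA1, chrX:24693741-24693828, plus strand: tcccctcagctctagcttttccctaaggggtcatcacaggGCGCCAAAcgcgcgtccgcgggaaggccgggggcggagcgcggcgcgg
LIG1, chr19:48170440-48170469, minus strand: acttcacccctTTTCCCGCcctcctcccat
ORC3, chr6:87590112-87590141, plus strand: cgcgagggcgcGCGGGAAAtcccgagtgca

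The distance from the centre of the match to the summit was 2.5 bp at GMNN, which encodes the licensing inhibitor geminin, 9.5 bp at MCM6 and 20.5 bp at RFC3. It was 39.5 bp at POLA1, 57.5 bp at LIG1 and 65.5 bp at ORC3. The match lies in the first intron of GMNN, 399.5 bp after the canonical start. It lies before the canonical start at the other 5, by 82.5 bp at MCM6, 51.5 bp at RFC3, 133.5 bp at POLA1, 110.5 bp at LIG1 and 8.5 bp at ORC3. At GMNN and MCM6 it stands between CCAAT boxes, as the printed stretches show.

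A longer form of the motif was seen at MCM5 and MCM6, which encode subunits of the same helicase ring. There, matches on both strands overlap by 4 bases to make a 12-base site. This pattern was picked out after the sequences had been read. It occurs once near the MCM5 summit, and 2 times near the MCM6 summit, centred 84.5 bp and 146.5 bp upstream of the canonical start. Within 100 bp of the summit it was present at 2 of the 44 replication genes and at 4 of the 16250 promoters in all. The 3 stretches are given here with the 12-base site in capitals.
MCM5, chr22:35399905-35399992, plus strand: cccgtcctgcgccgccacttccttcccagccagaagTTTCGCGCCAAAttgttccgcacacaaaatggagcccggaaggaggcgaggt
MCM6, nearer site, chr2:135876513-135876542, minus strand: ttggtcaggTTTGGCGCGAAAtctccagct
MCM6, farther site, chr2:135876575-135876604, minus strand: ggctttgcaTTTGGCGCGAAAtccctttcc

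The 14 genes with an E2F match near the summit were MCM3, MCM5, MCM6, MCM7, ORC3, CDT1, GMNN, CDC7, GINS2, RFC3, POLA1, POLA2, POLE and LIG1. Together they held 19 matches, and MCM5, MCM6 and CDC7 had more than 1 each. The match nearest to the summit lay upstream of the canonical start in 12 of them and downstream in GMNN and CDC7, where the summit was in the first intron. A further 8 genes, MCM2, MCM4, MCM8, CDC6, GINS1, GINS3, POLD1 and TYMS, had a match in the stretch around the canonical start but not within 100 bp of the strongest summit. By group, matches near the summit were found at 4 of 9 MCM genes and 1 of 6 origin recognition genes. They were found at 3 of 5 genes of licensing and firing and 3 of 6 primase and polymerase genes. None was found at the 3 RPA genes or the 3 genes of nucleotide supply. The strongest summit lay 19812 bp downstream of the canonical start at RRM2, 77943 bp at RPA3 and 680 bp at TYMS. The search around the summit therefore did not cover those starts. The stretch around the canonical start held no match at RRM2 and RPA3. The median fold of the genes with a match was 11.8 (n = 14, 4.29 to 20.0), and that of the genes without one was 13.9 (n = 30, 7.79 to 19.5).

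**Figure D1:**
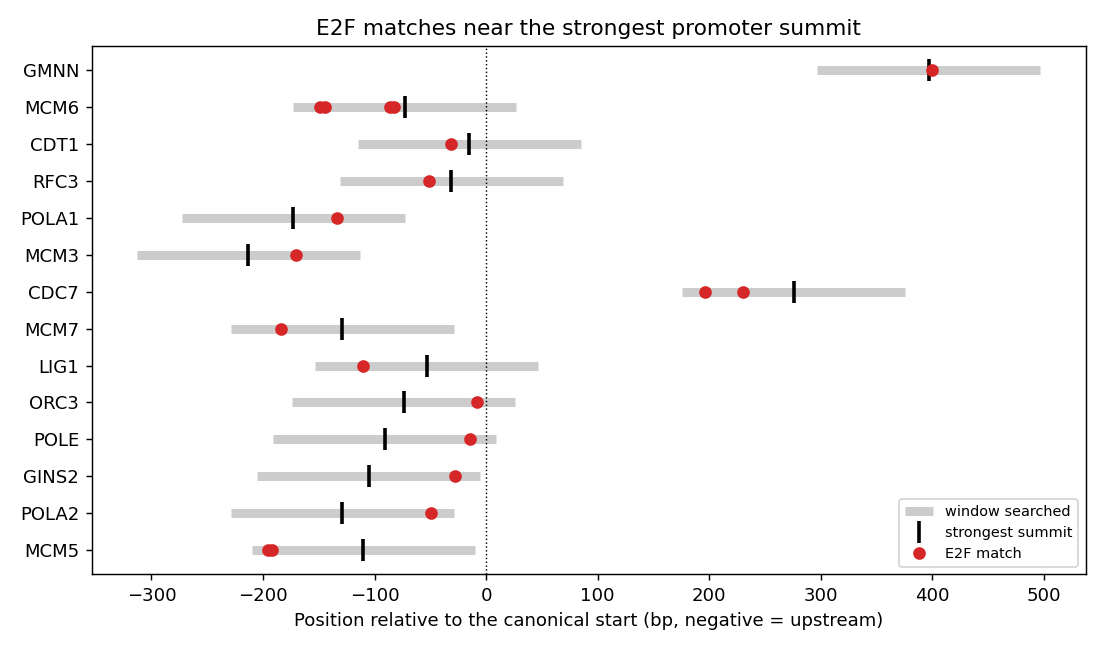
E2F matches (red points) within 100 bp (grey bars) of the strongest promoter summit (black ticks) at the 14 replication genes that had one, in bp from the canonical start. At GMNN and CDC7 the summit and the matches lie downstream of the start, and at the other 12 genes the nearest match lies upstream.

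The CCAAT box was also frequent at these promoters. It was present within 100 bp of the summit at 25 of 44 genes (56.8%), against 31.7% of all promoters with a region, and its backward string at 6.82% against 12.4%. All 3 RPA genes and 8 of 9 MCM genes had it, while MCM2 did not. Only 1 of the 6 genes of the clamp and its loader had it, and that gene was PCNA. Both a CCAAT box and an E2F match stood near the summit in 8 genes, and 13 genes had neither. RRM2, 1 of the 13, was read here at its summit 19812 bp downstream of the canonical start. The shares over all promoters are not given here, so these counts do not show whether the 2 motifs occur together. The strings of these 2 motifs overlapped in none of the genes, and an E2F match overlapped a GC box match in 2. The GC box GGGCGG was present at 72.7% of the replication promoters, 64.1% of all promoters and 70.9% of those of the CpG-richer genes. Its backward string was present at 88.6% of the replication promoters and 63.2% of all promoters. That backward string, GGCGGG, overlaps the box in the stretch GGGCGGG, so it is no control for this motif. For the ETS string CCGGAAG the shares were 18.2% and 13.6%, with 6.82% and 4.19% for its backward string.

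The string TTTGAA is the cell cycle genes homology region (CHR) known from genes of mitosis. It was present at 1 of the 44 replication promoters (2.27%), against 4.44% of all promoters. That gene was TYMS, where the window lay around a summit 680 bp downstream of the canonical start, in the first intron. In a list of 40 kinesin, centromere and spindle genes the CHR was present at 18 promoters (45.0%). E2F matches were present at 10.0% of the promoters of that list, at 12.2% of those of 49 DNA repair genes and at 17.8% of those of 45 further replication genes. The CCAAT box was present at 30 of the 40 kinesin, centromere and spindle promoters, 49.0% of the DNA repair promoters and 44.4% of the further replication promoters. It is therefore not shown to be particular to the 44 genes. These shares describe the lists and were not tested against each other.

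**Figure D2:**
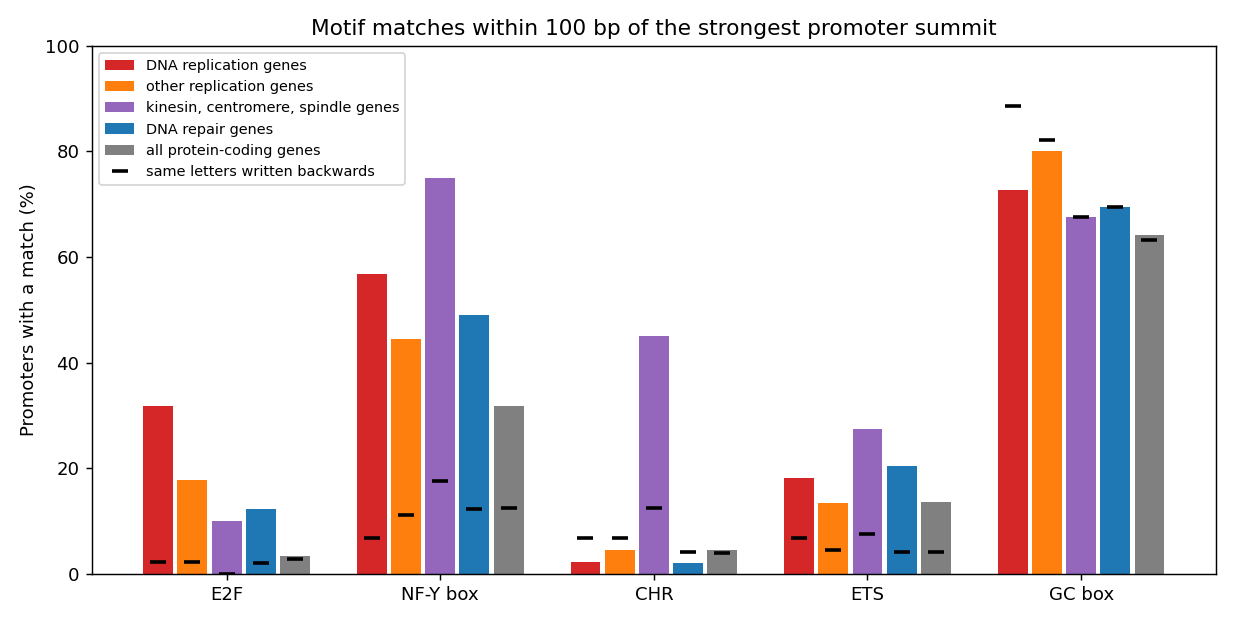
Percent of promoters with a motif match within 100 bp of the strongest summit in 5 sets of genes, with the replication genes in red and all protein-coding genes in grey. The NF-Y box is the CCAAT box. Black ticks give the share for the same letters written backwards. E2F matches were most frequent among the replication genes (31.8%) and the CHR among the kinesin, centromere and spindle genes (45.0%). The backward string of the GC box overlaps the box in the stretch GGGCGGG, so it is no control for that motif.

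Most replication promoters were more accessible than the median protein-coding promoter. The level used here is the fold of the summit over background, a value from the authors' list, taken for each gene at its highest summit within 1000 bp of a start and set to 0 where there was none. The median was 13.2 for the 44 genes, with a 95% order-statistic interval over genes of 11.9 to 14.2, and 8.49 for all protein-coding genes. It was 9.71 for the protein-coding genes that had a region and 9.83 for the CpG-richer genes. Of the 44, 34 had a fold of 10 or more, against 38.5% of protein-coding genes and 48.6% of the CpG-richer genes. Above the median of all genes lay 41, against 50.0%, and 13 lay in the highest 10.0%. The shares of all protein-coding genes include those without a region. The authors' −log10 p for the same promoters had a median of 196 for the replication genes and 98.7 for all protein-coding genes. A list of 40 kinesin, centromere and spindle genes had a median fold of 13.8 with 36 genes at 10 or more, and 49 DNA repair genes had a median of 11.9 with 39 genes at 10 or more. Stronger promoter accessibility is therefore not shown to be particular to replication genes.

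The 6 genes of the origin recognition complex, which marks origins on DNA, had folds from 11.5 to 20.0 with a median of 15.4. ORC3 was the highest of all 44 genes, with a fold of 20.0 in a region of 831 bp at chr6:87589638-87590468, ranked 172 of 20007 genes. ORC5 had 17.6, ORC2 16.1, ORC1 14.7, ORC4 13.6 and ORC6 11.5. ORC4 had the second highest −log10 p of the 44, 529, in a region of 1715 bp with 5 summits, although its fold was below the median of the group.

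The subunits of the replicative helicase, MCM2 to MCM7, had lower folds than the other genes with an MCM name, which are not part of the ring. MCM10, which helps to activate the helicase, had 19.5 at chr10:13161077-13161860. MCM8 and MCM9, whose products form a separate complex that acts in recombination, had 17.4 and 15.3. The ring subunits had 14.8 (MCM3), 14.5 (MCM2), 13.3 (MCM5), 12.7 (MCM4), 12.6 (MCM6) and 10.2 (MCM7), so the highest of them lay below the lowest of the others. This split did not hold for −log10 p, where MCM3 (507) lay above MCM10 (365) and MCM8 (307). MCM9 also had a region in its eighth intron (fold 11.7 at chr6:118893528-118895306, 1779 bp and 5 summits), at another annotated start of MCM9 and in reach of a start of ASF1A, which encodes a histone chaperone.

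Licensing and firing genes covered a wide range. CDC6, the loader that recruits the ring, had a fold of 13.1, and GMNN had 12.98. CDC45, a partner of the active helicase, had 10.9, and CDC7, the kinase that fires origins, had 9.90. CDT1, which delivers the ring to the origin and is the target of geminin, had 4.29, the lowest of the 44 genes. Its region at chr16:88803573-88804094 was 522 bp wide with a single summit and a −log10 p of 28.5. A lower fold was found at 24.8% of protein-coding genes, a share that includes the genes without a region. By fold CDT1 ranked 15055 of 20007 genes, of which 16250 had a region. Both CDT1 and GMNN had an E2F match near the summit.

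The 4 GINS genes had folds of 18.2 (GINS4), 16.3 (GINS2), 13.9 (GINS3) and 13.2 (GINS1). At GINS1 the summit with the highest fold lay 16765 bp upstream of the canonical start, near another annotated start and in a region shared with the start of ABHD12. The canonical start had its own region with a fold of 11.7, at chr20:25407270-25408033. At GINS3 the summit lay 378 bp downstream of the canonical start, in the first intron.

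At the clamp and its loader, PCNA, the sliding clamp that holds polymerases on DNA, had a fold of 16.6 at chr20:5119322-5120384. A second region of PCNA, with its summit 6891 bp upstream of the canonical start and 223 bp from another annotated one, had 13.8 and was shared with CDS2, a gene of phospholipid synthesis. The 5 subunits of the clamp loader ran from 15.8 (RFC5) over 13.9 (RFC2), 11.9 (RFC1) and 10.1 (RFC4) to 8.22 (RFC3), just below the median of all protein-coding genes. The single-strand binding proteins had 18.2 (RPA3), 14.2 (RPA1) and 13.3 (RPA2). RPA3 had the highest −log10 p of the 44 genes, 710, in a region at chr7:7640186-7641571. The region is shared with a start of UMAD1, so its values describe UMAD1 as well. That summit lay 77943 bp downstream of the start annotated as canonical, 87 bp from another start of the gene, and no region lay at the canonical start.

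The polymerase, ligation and nucleotide genes had group medians of 10.4, 8.58 and 9.23. Primase and polymerase genes had 14.1 (PRIM2), 12.9 (POLA1), 11.02 (POLE), 9.74 (POLA2), 9.45 (POLD1) and 8.82 (PRIM1). FEN1 and LIG1, which trim and seal Okazaki fragments, had 7.79 and 9.38. RRM1, the large subunit of ribonucleotide reductase, had 15.1. RRM2, the small subunit whose level is known to follow the cell cycle, had 8.98 at its canonical start, in a region of 1163 bp with a −log10 p of 173. A slightly higher fold of 9.11, with a −log10 p of 74.4, lay 19812 bp downstream, 226 bp from another annotated start. TYMS, which makes thymidylate, had 9.23 at a summit 680 bp downstream of the canonical start, in the first intron, and 5.48 at the summit 146 bp upstream of it. Weaker further regions lay at PRIM2 (9.65 and 7.19), POLD1 (7.35), RRM2 (6.63), TYMS (4.16), LIG1 (3.62) and FEN1 (3.49).

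**Figure D3:**
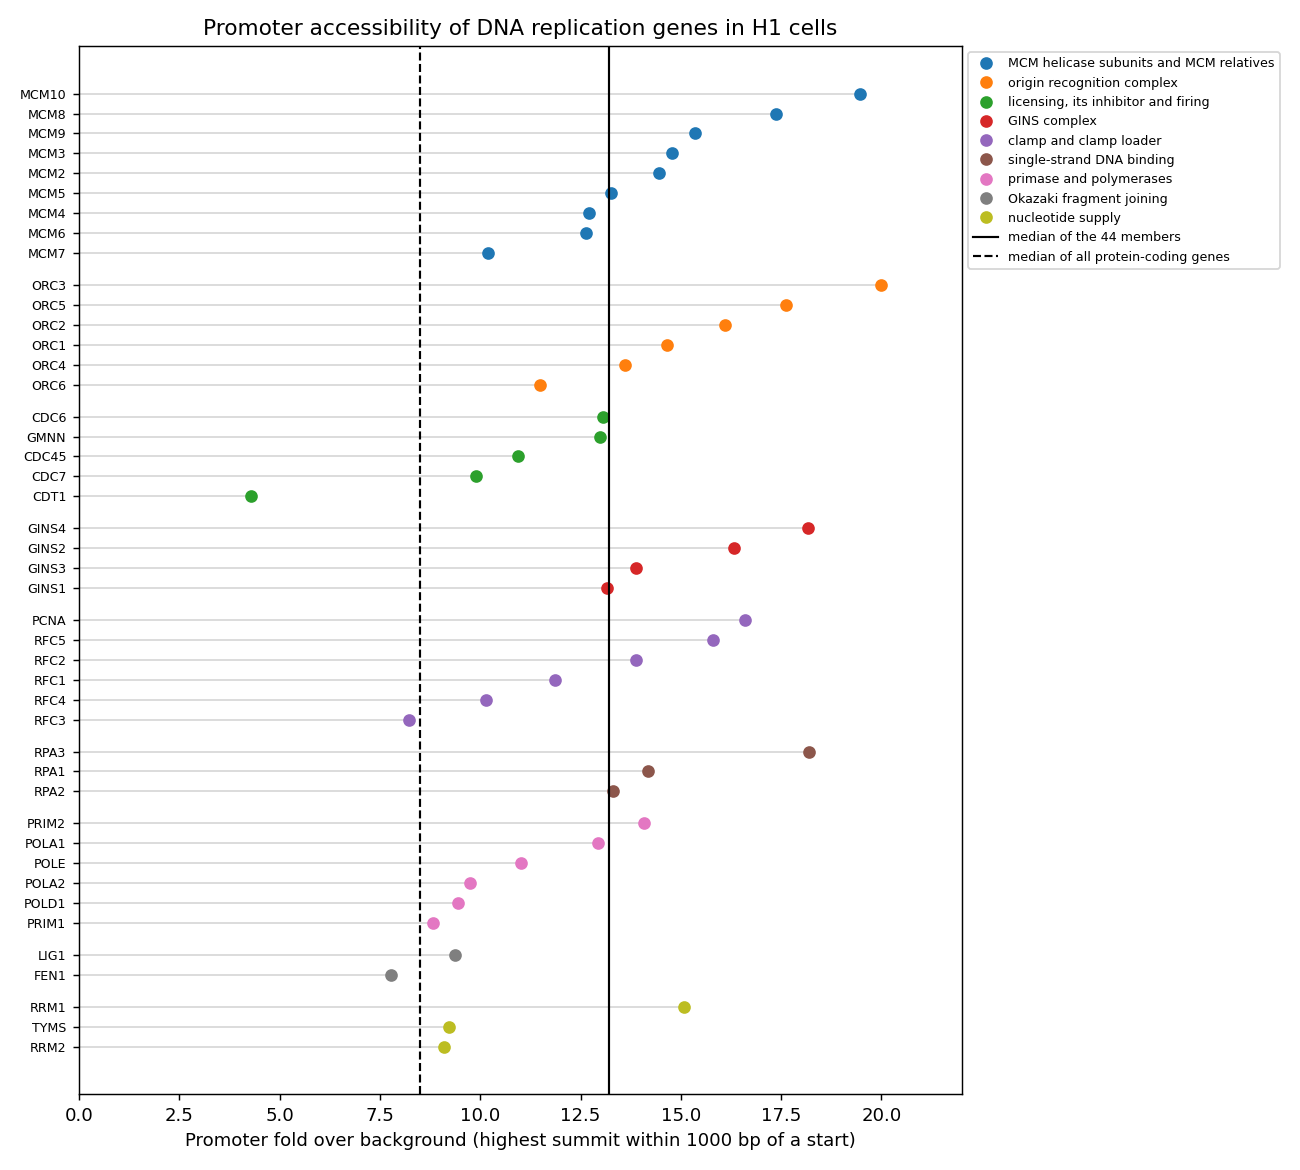
Promoter fold over background of the 44 DNA replication genes, grouped by role (colours). The solid line marks their median (13.2) and the dashed line that of all protein-coding genes (8.49). CDT1 (4.29), FEN1 (7.79) and RFC3 (8.22) lie below the dashed line, and ORC3 (20.0) and MCM10 (19.5) are the highest.

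The 2 measures of the list did not rank the promoters alike. ORC5 and GINS4 had folds of 17.6 and 18.2 with a −log10 p of 252 and 328, whereas ORC4 and MCM3 had folds of 13.6 and 14.8 with a −log10 p of 529 and 507. Judged by −log10 p, 38 of the 44 genes lay above the median of all protein-coding genes. The background behind the fold is not given in the sources used here, so a difference in fold between 2 genes can come from the background as well as from the summit.

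**Figure D4:**
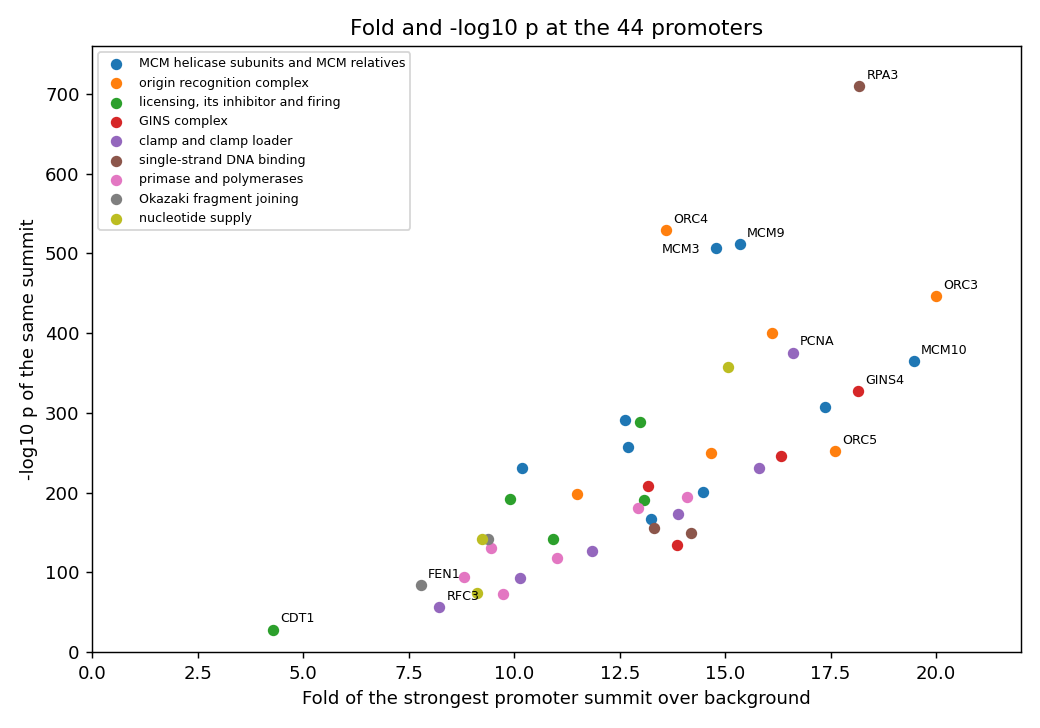
Fold over background against −log10 p of the strongest promoter summit, both from the authors' list, for the 44 replication genes coloured by role. RPA3 stands highest in −log10 p (710), ORC3 in fold (20.0), and CDT1 is lowest in both (4.29 and 28.5).

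Accessibility peaked at a similar place in most of these promoters. The strongest summit lay within 1000 bp of the canonical start in 41 genes, upstream in 37 and downstream in 4 (GMNN, CDC7, GINS3 and TYMS). The exceptions were GINS1, RPA3 and RRM2. The median position of the 41 was 93 bp upstream (25th to 75th percentile, 117 to 52 bp upstream), against 69 bp upstream (139 to 19 bp) for 13522 protein-coding genes. The summit lay 50 to 150 bp upstream in 25 of the 41 (61.0%), against 38.0% of the protein-coding genes. The share was 38.1% in the further replication genes (16 of 42), 44.7% in the DNA repair genes and 82.5% in the 40 kinesin, centromere and spindle genes, so it was not raised in the list nearest in function. Regions with the strongest summit were a median of 1112 bp wide, from 475 bp (RRM2) to 1715 bp (ORC4), against 1074 bp for all promoters. That of RRM2 lay 19812 bp downstream of its canonical start. The region at the RRM2 canonical start was 1163 bp wide. More than 1 summit was present in 86.4% of the regions with the strongest summit, against 80.6% of all promoters and 86.8% of those of the CpG-richer genes.

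**Figure D5:**
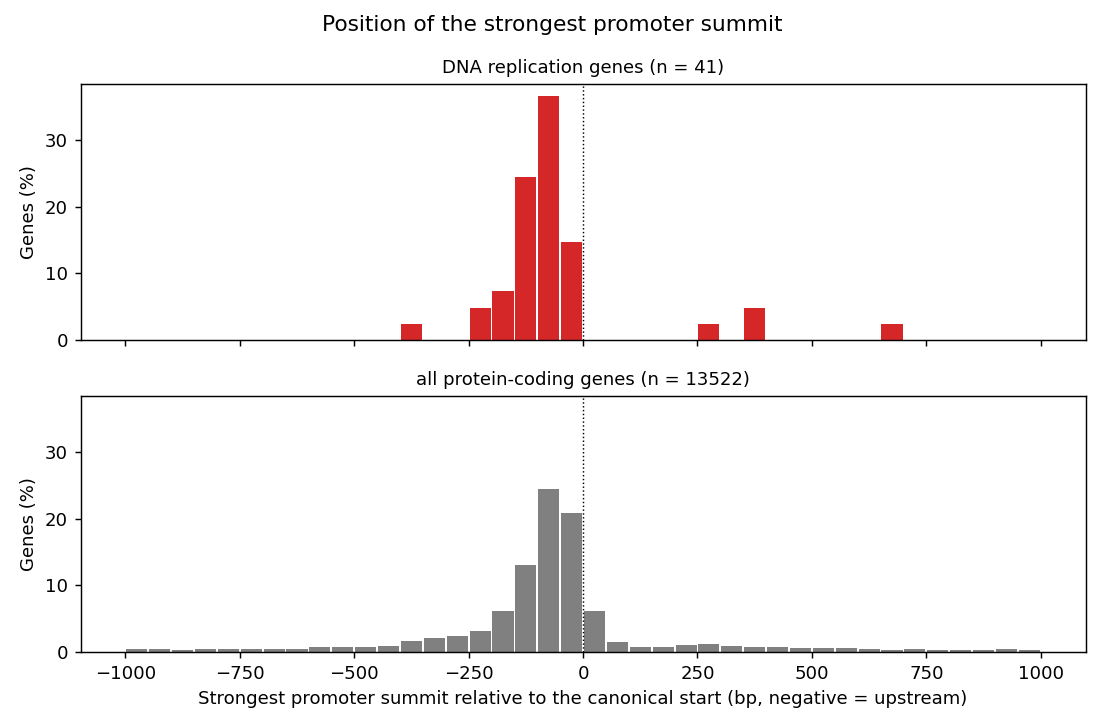
Position of the strongest promoter summit relative to the canonical start, in steps of 50 bp, as percent of genes. The upper panel shows the 41 replication genes with the summit within 1000 bp and the lower panel the 13522 protein-coding genes. In the upper panel 61.0% lie 50 to 150 bp upstream, against 38.0% in the lower.

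Some replication genes shared an accessible promoter region with another protein-coding gene. This was so for 20 of the 44 (45.5%), against 26.2% of the protein-coding genes with a region, and in none of these cases was the partner another of the 44. The share was 44.9% in the DNA repair genes and 37.5% in the kinesin, centromere and spindle genes, and 18 of the 45 further replication genes shared a region, so sharing is not shown to be particular to the 44. The partner was divergent, on the opposite strand and upstream, in 16 genes, and the share over all protein-coding genes is not given here. In some of them the canonical starts were far apart and the region lay at another start of a gene. The distance was 7678 bp for MCM2 and TPRA1, and 7050 bp for PCNA and CDS2. For PRIM1 and HSD17B6 it was 11001 bp, and for GINS1 and ABHD12 16838 bp. Among closer pairs, the distance between canonical starts was 103 bp for RPA1 and SMYD4, 119 bp for MCM8 and TRMT6, 148 bp for ORC3 and RARS2, 179 bp for ORC1 and PRPF38A, and 245 bp for POLE and PXMP2. It was 805 bp for MCM4 and PRKDC, which encodes the catalytic subunit of the DNA-dependent protein kinase of DNA repair. The fold of a shared region cannot be assigned to 1 of its genes, and it describes the partner as well. In MCM9, PCNA and POLD1 the shared region was not the one with the highest fold. In the MCM4 region the summit of 12.7 lay 99 bp upstream of MCM4, and a second of 6.97 lay 732 bp upstream, on the PRKDC side.

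A distal region, with no summit within 1000 bp of any start of any gene, was counted for whichever protein-coding gene had the closest start, up to 100 kb away. The median was 1 per replication gene, against 2 for all protein-coding genes, and 17 of 44 (38.6%) had none, against 31.2%. The share with none was 53.3% in the further replication genes, 46.9% in the DNA repair genes and 45.0% in the kinesin, centromere and spindle genes. These 115 regions had a median fold of 5.12, against 5.11 for the distal regions of all protein-coding genes, and 67 lay inside the body of the gene. The highest counts were 12 at PRIM2, 11 each at ORC4 and ORC5, and 10 at MCM9. Some of them matched the promoter in strength. A region 23551 bp from the nearest start of ORC5 (chr7:104230949-104232031) had a fold of 16.8, against 17.6 at its promoter. A region inside PRIM2 (chr6:57423404-57424025) had 15.6, against 14.1 at the promoter, and one 94079 bp from RFC3 (chr13:33723702-33724352) had 16.2, against 8.22. Nearness does not show that a region acts on the gene.

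The limit of 1000 bp left out few summits. The summits just inside were those of GINS1 at 964 bp (fold 3.20) and ORC6 at 957 bp (4.98), and those just outside were of GINS4 at 1063 bp (11.1) and PCNA at 1122 bp (2.88). In all, 149 summits of the 44 genes lay inside and 10 lay between 1000 and 2000 bp.

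A list of 45 further replication genes, such as accessory polymerase subunits, checkpoint mediators and histone chaperones, was chosen for comparison. All 45 had a region, their median fold was 11.03 and 26 had 10 or more. The 3 highest were MTBP (17.8), a partner of the origin firing factor TICRR, POLD2 (16.8), a subunit of polymerase delta, and CCNA2 (16.7), the S phase cyclin.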

How the data were processed

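ATAC-seq was measured in 2 samples of H1 cells that share 1 deposited peak list of 236878 summits in 160327 regions. Per the submitters' processing notes the build was GRCh38. Per the labels the list is an optimal set from an overlap, while how reads were aligned and peaks called was not given in the sources used here. Units were read off the columns of the narrowPeak format: a deposited fold of each summit over an undescribed background, a deposited −log10 p, and a deposited score, which is 10 times the −log10 p, truncated and capped, in all but 12 rows. Library depth is unknown from the list. Starts came from GENCODE release 44, which gave 20007 protein-coding symbols, and bases from the hg38 sequence, whose chromosomes held every row (0 rows ended past an end). Rows with the same coordinates were 1 region.

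All 44 members matched by symbol. Motifs were matched as strings on both strands. The canonical start is that of the Ensembl canonical transcript, and CpG was counted 500 bp to either side of it. The alternatives concerned the window, the starts, the summits, the −log10 p and the motif. Functions were tested on simulated data. The members, lists and tests were chosen with earlier results of these data known. Named were every member, of the 45 further replication genes the 3 highest, and the markers, of which 1 is not reported here. The 12-base E2F pattern was singled out after the sequences were seen. GC box, ETS and CHR strings were searched in the same way as E2F, and nothing states that the samples are from different cultures. Python 3.11.15, pandas 2.3.3, numpy 2.4.6, scipy 1.17.1 and pysam 0.24.0 were used.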

Additional observations from a re-analysis of the deposited data

How the results depend on the processing

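Of 33 recomputed values under the alternatives, 31 stayed within 1.5 times the reported count, or within the interval of the median fold, and 2 did not. With E2F matches searched within 50 bp of the summit, 7 genes had one, as a shorter stretch was searched. With distal regions above the median −log10 p only, the median count per replication gene was 0, and 1 for all protein-coding genes, as fewer regions were counted. All 44 genes kept a region with windows of 500 bp and 200 bp, with the strongest summit of each region only, with summits above the median −log10 p of 22.2 and when the region had to cover a start. At the canonical start alone 43 did, without RPA3, and at the outermost start alone 39 did, without GINS2, GINS3, RFC5, RPA3 and PRIM2. The median fold ran from 12.7 to 13.2 over these settings. No paired analysis was possible because both samples share 1 list, and for the same reason no replicate could be left out.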

Other observations

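In the strongest region of each replication gene, neighbouring summits were a median of 307 bp apart (25th to 75th percentile 267 to 399 bp, 83 gaps), against 294 bp (247 to 375 bp) at all protein-coding promoters. LIG1 had 6 summits in 1713 bp, with folds of 4.93, 3.82, 4.02, 9.38, 6.86 and 2.05 in genome order, and the highest was 53 bp upstream of its canonical start. MCM10 had 19.5 at 84 bp upstream and 3.66 at 211 bp downstream. PCNA had 16.6 at 100 bp upstream and 9.03 at 458 bp downstream.

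The 12-base site made of overlapping E2F matches on both strands was found near the summit of 2 genes besides MCM5 and MCM6. These were DMC1 (promoter fold 8.94), which encodes a recombinase of meiosis, and MYCN (5.09), which encodes a transcription factor of the MYC family. MCM6 alone among the 4 had it in 2 copies.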
